A study of Homo sapiens with 21 samples.

Results

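Libraries of THP1 cells carrying short hairpin RNAs against IRF2BP2 were compared directly with libraries of THP1 clones in which ATF7 or JDP2 had been edited, with no control library in the comparison. The members were chosen by their labels as the 6 knockdown and the 8 knockout libraries, 14 of the 21 libraries that the labels describe and of the 19 that have values. THP1 is an established monocytic line derived from a human acute myeloid leukemia. The knockdown group held 3 libraries each of shRNA1 IRF2BP2 and shRNA2 IRF2BP2, hairpins carried by the pLKO.1 vector. The knockout group held 2 libraries each of ATF7 KO clone 1, ATF7 KO clone 2, JDP2 KO clone 1 and JDP2 KO clone 2. These clones came from transfection with Lenti-CRISPRv2 constructs followed by limiting dilution, a step meant to give the progeny of 1 cell. All groups were unstimulated as far as the labels say, grown in the same serum-supplemented medium, and measured by messenger RNA sequencing. The title of the series places IRF2BP2 against the ATF7/JDP2 heterodimer in the control of inflammatory activity, and the direct comparison asks how far the expression states of cells with either side disturbed lie apart. Targeted gene, delivery system and cloning change together between the groups, so that their shares in a difference cannot be told apart here. The shRNA control (2 libraries), KO control (2 libraries) and wild type (1 library) are set beside the results for that reason.

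IRF2BP2 is a nuclear cofactor, found as a partner of the repressor IRF2, that lowers transcription at the genes to which transcription factors bring it. ATF7 and JDP2 are basic leucine zipper factors of the ATF and AP-1 families. They bind cyclic AMP response elements and AP-1 sites as dimers, and JDP2 is known mainly as a repressor of AP-1. In monocytes, interferon regulatory factors and AP-1 factors together drive antiviral genes, receptors for microbes and complement, and the change from a dividing progenitor to a macrophage.

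Recovered reads in genes ranged from 28650241 to 60196382 per library over the 14 libraries, with 14263 to 19046 genes detected. In 3 of the 14 libraries more than 20 percent of genes lay over 2-fold from their median over all 19 libraries with values, controls included. They were shRNA1 IRF2BP2 replicate 3 (48.5 percent), shRNA2 IRF2BP2 replicate 3 (25.6 percent) and JDP2 KO clone 1 replicate 2 (38.2 percent). Larger changes of counts without these 3 libraries are given beside them. The library labelled shRNA2 IRF2BP2 replicate 3 goes against its label, because its IRF2BP2 message was above that of all 4 control libraries and the wild type. Replicate 2 of the same hairpin was also above KO control replicate 2. Each statement on the knockdown includes these libraries. Whether replicates are separate cultures is not stated in the labels, and libraries of 1 hairpin or clone share their source, so p-values measure the spread between these libraries. All 17 defining markers of monocytic leukemia cells were measured and none was at 0 in all 14 libraries.

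The direct comparison separated the groups over a large part of the transcriptome. Expression is given as the authors' normalized count, and differences as the mean log2(normalized count + 1) of the 6 knockdown libraries minus that of the 8 knockout libraries, with the standard error. By limma at a Benjamini-Hochberg adjusted p under 0.05, 4197 of 13225 genes were called (31.7 percent of genes tested). Of these, 2181 were higher in the knockdown (16.5 percent) and 2016 were lower (15.2 percent), around a median over all tested genes of -0.01. The higher side held the larger differences. It had 315 called genes past 2 on the log2 scale and 132 past 3, against 64 and 8 on the lower side, although the median size was similar at 1.03 and -1.01. In 1805 genes (13.6 percent) the 6 knockdown values lay wholly outside the range of the 8 knockout values, with 902 genes above it (6.82 percent) and 903 below it (6.83 percent). Pairs of 1 knockdown and 1 knockout library correlated at a median of 0.934 over 48 pairs on log2 values, against 0.961 for pairs between the hairpins and 0.962 for pairs between ATF7 and JDP2 knockouts. These coefficients describe libraries that share their genes and carry no test.

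**Figure D1:**
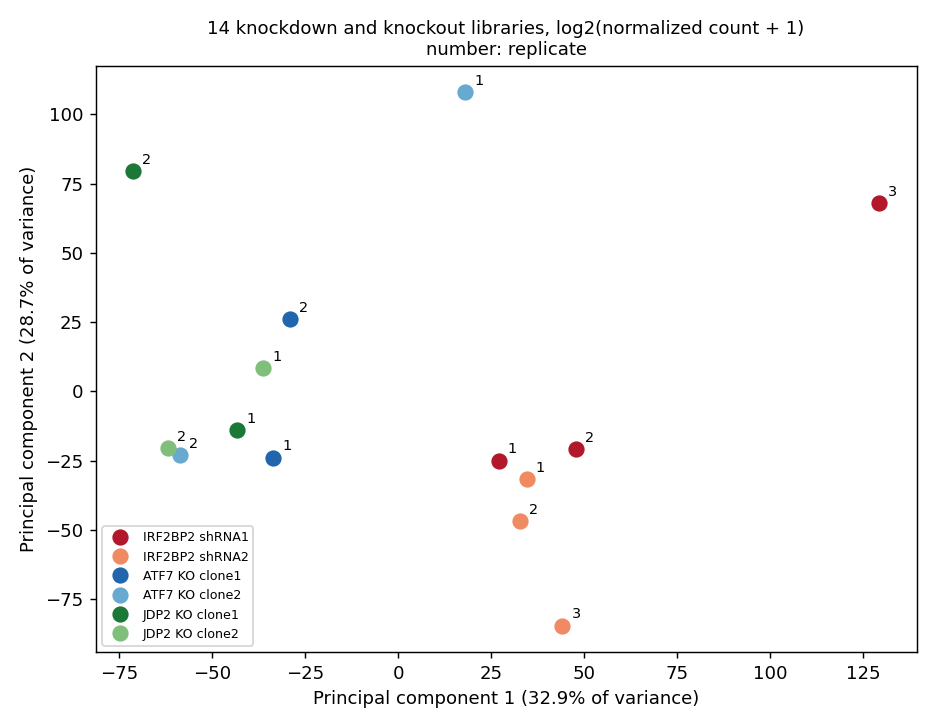
Principal components 1 (horizontal, 32.9 percent of variance) and 2 (vertical, 28.7 percent) of the log2 values of the 14 libraries, colored by hairpin or clone and numbered by replicate. All 6 knockdown libraries lie to the right, but the first component also holds shRNA1 IRF2BP2 replicate 3 far to the right, ATF7 KO clone 2 replicate 1 lies to the right of the other knockout libraries, and the second component separates single libraries rather than groups.

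Taken by knockout, 1527 genes differed between the knockdown and the ATF7 knockout (11.5 percent of genes tested; 952 higher, 7.2 percent, and 575 lower, 4.35 percent). Between the knockdown and the JDP2 knockout 3692 genes differed (27.9 percent; 1890 higher, 14.3 percent, and 1802 lower, 13.6 percent). Both comparisons use the same 6 knockdown libraries. The unequal counts are no test of a difference between the knockouts. In that test limma called 0 genes between the JDP2 and ATF7 knockouts, with 239 at an unadjusted p under 0.05. Between the hairpins it also called 0 genes, with 889 at an unadjusted p under 0.05. The ATF7 count varied with the libraries, at 2546 without the 3 libraries that stand apart and at 723 without ATF7 KO clone 2 replicate 2, 840 without ATF7 KO clone 1 replicate 2 and 945 without ATF7 KO clone 1 replicate 1. The JDP2 count was 2397 without JDP2 KO clone 1 replicate 2.

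The targeted genes themselves differed little between the groups. IRF2BP2 (chromosome 1, 234604269 to 234610178, GRCh38) had 9456 to 25650.5 (median 11848) normalized counts in the knockdown libraries and 17579.8 to 27597 (median 20536) in the knockout libraries. The controls were at 16973 and 18382 (shRNA control), 21364 and 14859 (KO control) and 18154 (wild type). The knockdown range reaches into the knockout range, and its top value belongs to the library whose label it contradicts. Replicate 2 of that hairpin, at 16649, was about level with the shRNA control. The difference was -0.68 ± 0.24 (limma adjusted p = 0.0365). That call was lost when any of 8 single libraries was left out, among them each shRNA1 library, and without all shRNA1 libraries the IRF2BP2 difference was -0.29 (limma adjusted p = 0.425). ATF7 stood at 398 to 1337 (median 510.3) in the knockdown and 168 to 645 (median 335) in the knockouts, a difference of 0.64 ± 0.31 that did not pass (limma adjusted p = 0.121). JDP2 stood at 1104 to 6394 (median 3542) and 2636 to 5693 (median 4929), a difference of -0.48 ± 0.30 (limma adjusted p = 0.239). An edit can end a protein and leave its message, so neither level checks the knockout labels. Against the JDP2 knockout alone the ATF7 message was higher in the knockdown, by 1.13 (limma adjusted p = 0.0134). Its 4 values in that knockout, 168 to 307, lay below every knockdown value.

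Among 20 listed targets and partners, 6 were higher in the knockdown, 3 were lower and 11 were not called, with a median difference of 0.15 against -0.01 for all genes. FOS and FOSL2, AP-1 subunits that pair with JUN proteins, lay far apart. FOSL2 (chromosome 2, 28392858 to 28417317) had 11973 to 51147 (median 18943) in the knockdown and 1837 to 3585 (median 2371) in the knockouts. The ranges were far apart, the shRNA and KO controls sat with the knockouts and the wild type lay above them, at 1998 and 2560.0 (shRNA control), 2881 and 1839 (KO control) and 4973 (wild type). The FOSL2 difference was 3.03 ± 0.28 (limma adjusted p = 2.46e-06), and FOS differed by 3.29 ± 0.37 (limma adjusted p = 9.81e-06). FOS values were 752 to 6837 (median 1472) in the knockdown and 102 to 239 (median 175) in the knockouts. FOSL1, FOSB, JUNB and JUND, further AP-1 subunits, differed by -0.32, -0.46, 0.09 and 0.27, and none of them passed the test. IRF2BPL, a further paralog of IRF2BP2, and ATF2, a paralog of ATF7, differed by 0.14 and 0.56 and did not pass either. JUN differed by 0.76 ± 0.29, and this call was lost without any of 11 of the 14 libraries.

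IRF2, the repressor with which IRF2BP2 was found, had 664 to 1429.9 (median 1015) in the knockdown and 216 to 412 (median 312) in the knockouts. The groups did not overlap and the controls reached higher than the knockouts, at 363 and 409 (shRNA control), 565 and 720.1 (KO control) and 342 (wild type). The IRF2 difference was 1.62 ± 0.20 (limma adjusted p = 2.67e-05). IRF2BP1, a paralog of IRF2BP2, went the other way at 841 to 3648 (median 2944) and 4094 to 17924 (median 6224), a difference of -1.46 ± 0.35 (limma adjusted p = 0.00404). Its lowest and highest values come from libraries that stand apart, and without these 3 libraries the IRF2BP1 difference was -0.88. BATF3, a leucine zipper factor of dendritic cells, was lower, at -1.25 ± 0.30 (limma adjusted p = 0.00481), and at -0.71 without those libraries. The BATF3 call was lost with the replicate number as a block (-0.85, limma adjusted p = 0.0601). In that fit the difference rests on replicates 1 and 2, because no knockout clone has a replicate 3. CREB1, which binds the same response element as ATF7, was higher by 0.80 ± 0.21 (limma adjusted p = 0.00806) with overlapping groups.

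**Figure D2:**
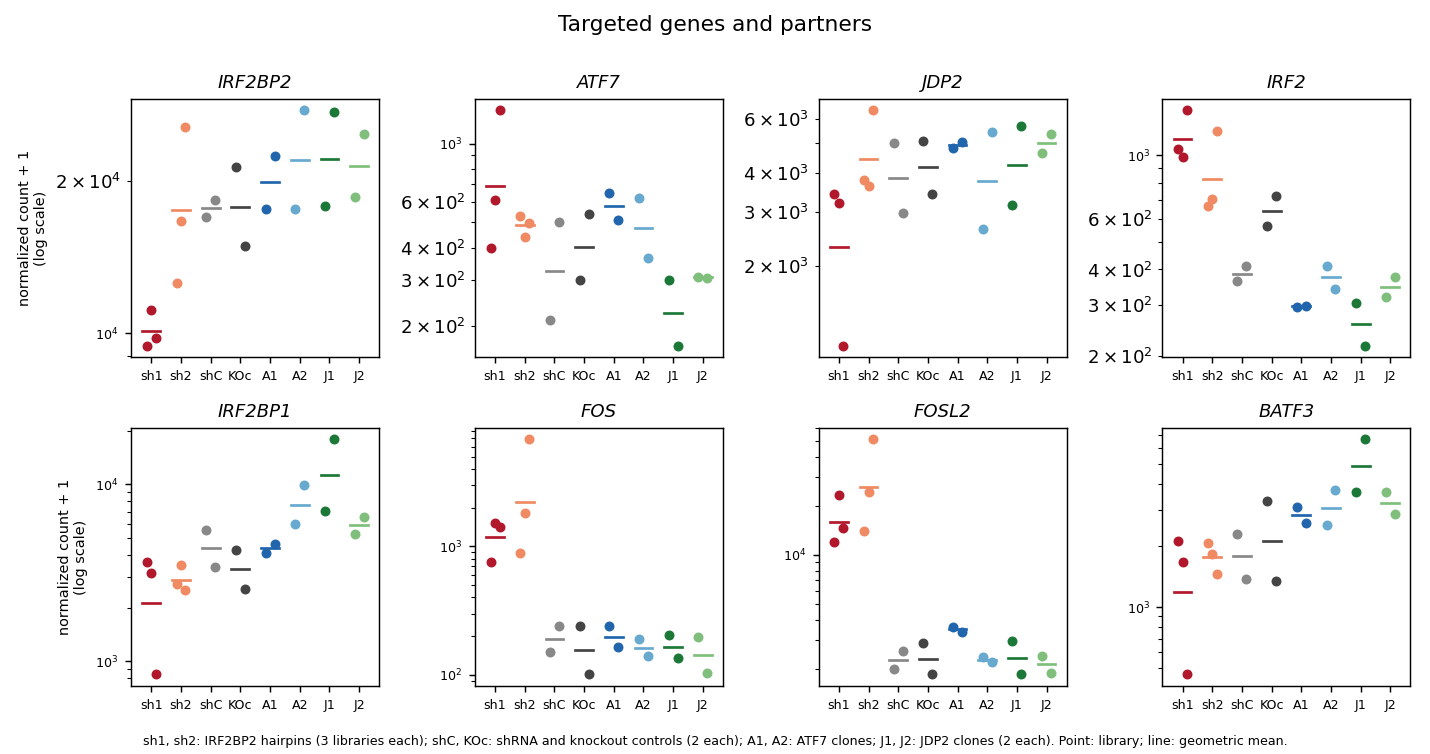
Normalized count + 1 on a log axis for the targeted genes and partners in 18 libraries, grouped by hairpin, control and clone, with a line at each geometric mean. IRF2BP2 overlaps between knockdown and knockout, whereas FOS, FOSL2 and IRF2 lie higher in every hairpin library than in any clone library, and IRF2BP1 and BATF3 lie lower.

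Interferon-stimulated genes, which cells switch on against viruses, had the largest share of members called higher among the lists. Of 51 listed genes 46 were tested, 42 were higher in the knockdown, 0 were lower and 4 were not called, with a median difference of 2.58 against -0.01 for all genes. In 30 of them the groups did not overlap (6.82 percent of all genes tested lay wholly above). OAS1, an enzyme that senses double-stranded RNA (chromosome 12, 112906962 to 112933219), had 567 to 6091 (median 2224) in the knockdown and 28.8 to 71.6 (median 39.4) in the knockouts. The groups were widely apart and the controls lay within or just above the knockout range, at 45.8 and 75.9 (shRNA control), 63.0 and 80.3 (KO control) and 110.2 (wild type). The OAS1 difference was 5.48 ± 0.42 (limma adjusted p = 5.58e-07), and that of its paralog OAS2 was 5.26 ± 0.56 (limma adjusted p = 7.17e-06).

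SAMD9 and SAMD9L, neighboring antiviral genes on chromosome 7, both separated. SAMD9 had 1145 to 7623 (median 2781) in the knockdown and 83.0 to 347 (median 181) in the knockouts, a difference of 3.96 ± 0.37 (limma adjusted p = 2.48e-06). SAMD9L had 325 to 3277 (median 846) and 4.80 to 47.4 (median 16.7), a difference of 5.50 ± 0.52 (limma adjusted p = 2.46e-06). Every knockdown library exceeded every knockout library for both, while the KO control libraries for SAMD9L, at 2.17 and 22.4, lay below the shRNA control libraries at 38.8 and 39.4. DDX60, a helicase that assists RNA sensing, stood at 439 to 2849 (median 907) and 42.9 to 111 (median 77.8), a difference of 3.53 ± 0.34 (limma adjusted p = 3.05e-06).

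The size of this group's signal varied between knockdown libraries. Relative to each gene's mean over the 14 libraries, the median of the 46 genes was 0.34 and 0.37 in replicate 1 of the hairpins, and 1.42, 2.14, 1.83 and 2.34 in the other knockdown libraries. The 2.34 belongs to shRNA2 IRF2BP2 replicate 3, whose IRF2BP2 message was above all controls. The 1.83 belongs to replicate 2 of that hairpin, where the message was about level with the shRNA control. Within shRNA2 the signal was thus not largest where IRF2BP2 was lowest, and its relation to the IRF2BP2 level was not tested. The 8 knockout libraries lay between -1.35 and -0.76, so that replicate 1 of each hairpin was nearest to them without reaching them.

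**Figure D3:**
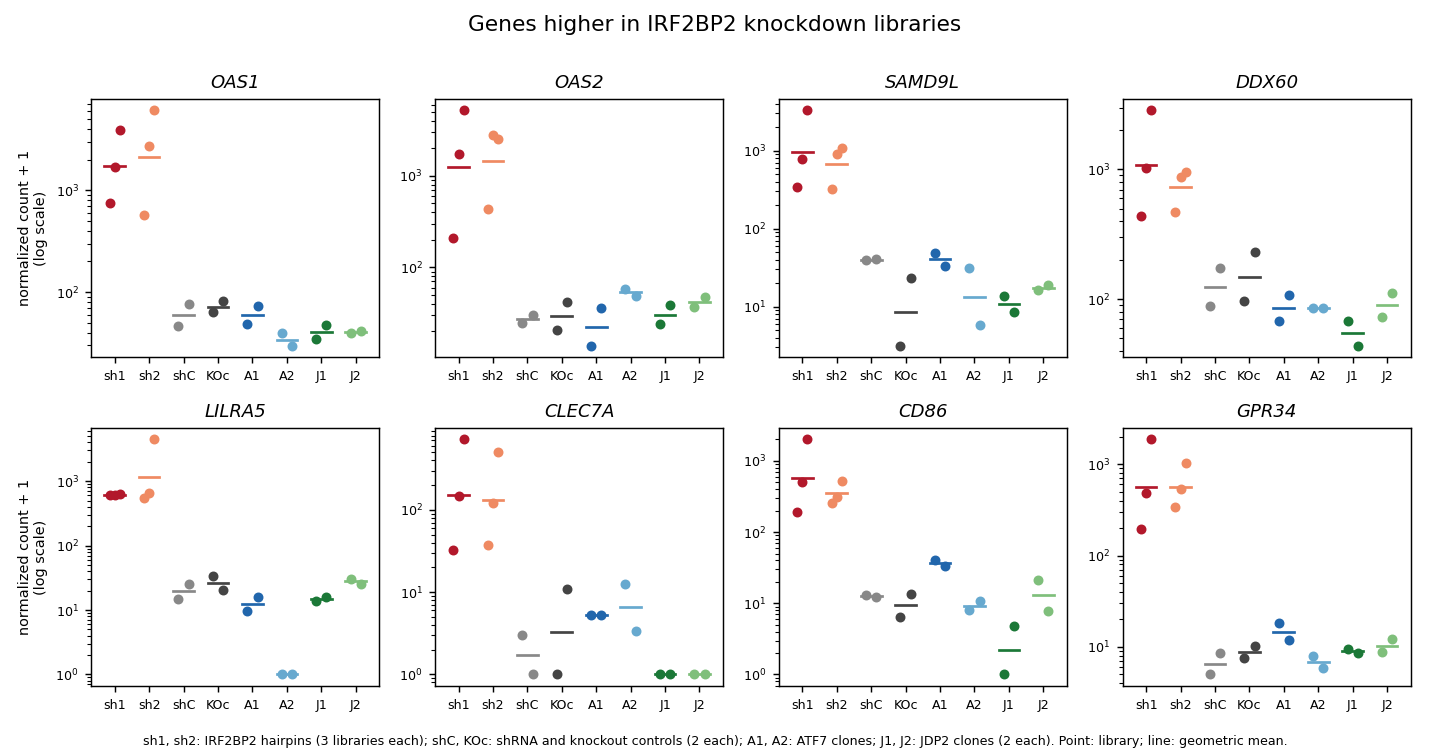
Normalized count + 1 on a log axis for 4 interferon-stimulated genes (top) and 4 receptor and ligand genes of myeloid cells (bottom), by hairpin, control and clone, with a line at each geometric mean. Every hairpin library lies above every clone library, and most controls lie at the level of the clones.

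Promoter letters were read for the genes of the comparison because the factors involved are known by the sites they bind. The windows are the 250 bases before the start of a RefSeq gene model (GRCh38), read on both strands, and 10638 of the 13225 tested genes had one. The interferon-stimulated response element was searched as GAAA, any 2 bases and GAAA again, which stood in 3.02 percent of all 35116 windows and in 3.52 percent of the tested genes with a window. It stood in 5.64 percent of the 1791 genes called higher with a window, in 15.5 percent of the 232 called higher by more than 2 on the log2 scale, in 2.2 percent of the 1635 called lower, and in 4.17 percent (2 of 48) of those lower by more than 2. Without the listed interferon-stimulated genes, of which 24 of the 39 with a window held the letters, the share among those 232 became 10.5 percent of 210. The 3 promoters that follow are from antiviral genes whose knockdown and knockout ranges did not overlap, with the matching letters in capitals. PARP14, an interferon-induced ADP-ribosyltransferase, is described with the controls below.
SAMD9 promoter, chr7:93117980-93118229, minus strand: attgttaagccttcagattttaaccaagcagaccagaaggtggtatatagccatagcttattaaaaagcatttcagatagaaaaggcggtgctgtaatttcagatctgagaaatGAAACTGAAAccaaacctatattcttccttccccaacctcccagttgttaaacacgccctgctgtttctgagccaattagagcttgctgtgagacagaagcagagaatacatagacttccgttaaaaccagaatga
DDX60 promoter, chr4:168318753-168319002, minus strand: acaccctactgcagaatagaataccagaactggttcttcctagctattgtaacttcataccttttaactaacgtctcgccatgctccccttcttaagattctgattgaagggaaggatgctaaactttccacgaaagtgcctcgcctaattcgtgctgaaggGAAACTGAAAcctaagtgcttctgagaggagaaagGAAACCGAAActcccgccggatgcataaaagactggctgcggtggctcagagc
PARP14 promoter, chr3:122680589-122680838, plus strand: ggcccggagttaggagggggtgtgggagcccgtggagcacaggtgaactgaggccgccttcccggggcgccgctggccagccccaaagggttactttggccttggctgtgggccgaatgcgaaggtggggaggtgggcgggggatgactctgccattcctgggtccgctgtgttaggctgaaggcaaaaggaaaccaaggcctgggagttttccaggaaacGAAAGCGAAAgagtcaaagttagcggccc

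The letters lie 127 bases before the start in SAMD9 and 20 in PARP14, and DDX60 has 2 matches, the nearer at 44 bases. The DDX60 window lies inside the gene span (chromosome 4, 168216294 to 168325979), so its start is not the outermost of that gene. Whether these cells use that start was not tested. The AP-1 site was searched as TGANTCA with any base in the middle. As a pattern it is its own reverse complement, and it does not contain the interferon element. It is looser than the usual TGACTCA or TGAGTCA, so the shares below include other middle bases. The pattern stood in 6.57 percent of all windows and in 6.46 percent of tested genes with one. The share was 9.38 percent among genes called higher, 16.4 percent among those higher by more than 2, 4.28 percent among genes called lower and 10.4 percent (5 of 48) among those lower by more than 2. The cyclic AMP response element, searched as TGACGTCA (also its own reverse complement), stood in 1.65 percent of all windows, 3.35 percent of tested genes, 2.85 percent of genes called higher, 1.29 percent of those higher by more than 2 and 3.85 percent of genes called lower, and in 0 of the 48 lower by more than 2. These shares describe letters in a window and not binding. The following 3 promoters match this AP-1 pattern and belong to genes with wide gaps, namely CD180 (a Toll-like receptor homolog), C3AR1 (the complement C3a receptor) and SAMD9L. Only the C3AR1 match has the usual letters, TGACTCA, whereas CD180 and SAMD9L have TGATTCA.
CD180 promoter, chr5:67196800-67197049, minus strand: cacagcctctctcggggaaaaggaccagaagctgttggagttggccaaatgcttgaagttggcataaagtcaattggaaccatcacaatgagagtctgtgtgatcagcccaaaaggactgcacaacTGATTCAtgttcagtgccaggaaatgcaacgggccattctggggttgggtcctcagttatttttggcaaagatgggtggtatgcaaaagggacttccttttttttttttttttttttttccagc
C3AR1 promoter, chr12:8066360-8066609, minus strand: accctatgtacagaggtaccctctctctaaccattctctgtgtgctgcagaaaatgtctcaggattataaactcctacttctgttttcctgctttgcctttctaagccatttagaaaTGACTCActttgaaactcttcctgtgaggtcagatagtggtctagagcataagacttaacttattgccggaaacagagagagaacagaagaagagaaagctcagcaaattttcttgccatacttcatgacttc
SAMD9L promoter, chr7:93148386-93148635, minus strand: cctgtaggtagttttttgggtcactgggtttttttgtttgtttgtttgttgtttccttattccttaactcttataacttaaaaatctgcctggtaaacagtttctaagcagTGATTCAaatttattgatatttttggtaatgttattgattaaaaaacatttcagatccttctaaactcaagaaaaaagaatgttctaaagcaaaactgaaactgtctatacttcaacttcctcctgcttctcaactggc

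Receptors of myeloid cells followed the interferon-stimulated genes in size. Of 53 listed receptors 40 were tested, 30 were higher in the knockdown, 0 were lower and 10 were not called, with a median difference of 2.15 (29 higher and 1 lower without the 3 libraries that stand apart). P2RY8 and CSF2RA were listed at 0 in all 14 libraries. GPR34, a lysophosphatidylserine receptor on chromosome X, had 194 to 1869 (median 512) in the knockdown and 4.80 to 17.2 (median 8.06) in the knockouts. The controls were at the knockout level, at 3.98 and 7.50 (shRNA control), 6.52 and 9.22 (KO control) and 12.7 (wild type), and the GPR34 difference was 5.85 ± 0.42 (limma adjusted p = 3.17e-07). CCR1, a chemokine receptor, had 957 to 3723 (median 1743) and 67.2 to 179 (median 122), a difference of 3.96 ± 0.32 (limma adjusted p = 7.20e-07). Groups did not overlap for either receptor. In bulk libraries, more cells of a kind and more message per cell cannot be told apart.

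Complement receptors behaved alike in direction. C5AR1, the C5a receptor, had 2544 to 26187 (median 3617) in the knockdown and 62.8 to 567 (median 161) in the knockouts, a difference of 5.04 ± 0.53 (limma adjusted p = 6.87e-06). C3AR1, whose promoter is shown above, had 451 to 2506 (median 763) and 42.6 to 164 (median 89.7), a difference of 3.35 ± 0.37 (limma adjusted p = 8.30e-06). The top C5AR1 value came from shRNA2 IRF2BP2 replicate 3, and the lowest knockdown value was still above the highest knockout value for both genes. FPR1, the formyl peptide receptor for bacterial peptides, was higher by 5.94 ± 0.73 (limma adjusted p = 2.15e-05).

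Several of the widest gaps belonged to leukocyte immunoglobulin-like receptors. LILRA5, an activating member, had 544 to 4459 (median 621) in the knockdown and 0 to 29.4 (median 13.8) in the knockouts, and it was at 0 in both libraries of ATF7 KO clone 2. The LILRA5 difference was 6.65 ± 0.76 (limma adjusted p = 1.08e-05), a size that depends on the added 1 because the knockout values are low. LILRB3 and LILRA6 are near-identical in sequence, so that their separate values of 6.45 ± 0.55 and 5.86 ± 0.66 are uncertain. CD180 had 66.0 to 444 (median 119) and 0 to 4.34 (median 2.18), CLEC7A, the beta-glucan receptor, had 31.2 to 718 (median 132) and 0 to 11.6 (median 1.20), and CD86, a costimulatory ligand, had 191 to 2006 (median 408) and 0 to 39.9 (median 8.27). All 3 lay higher in each knockdown library than in any knockout library. Their differences were 6.02 ± 0.59, 5.85 ± 0.80 and 5.51 ± 0.70 (limma adjusted p = 3.14e-06, 5.95e-05 and 2.79e-05). AQP9, a water and glycerol channel of leukocytes, had 36.0 to 741 (median 202) in the knockdown and 0 to 4.63 (median 1.08) in the knockouts.

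Sensors of microbes and their signaling genes were also higher. Of 36 listed Toll-like receptor and inflammasome genes 30 were tested, 20 were higher, 0 were lower and 10 were not called, with a median of 1.24 (21 higher and 1 lower without those 3 libraries). MEFV, which encodes the inflammasome sensor pyrin, had 333 to 1397 (median 567) in the knockdown and 28.8 to 156 (median 83.9) in the knockouts, a difference of 3.11 ± 0.37 (limma adjusted p = 1.51e-05). NLRC4, an adaptor for flagellin sensing, differed by 2.82 ± 0.38 (limma adjusted p = 5.95e-05), and IRAK4, a kinase below the Toll-like receptors, by 1.38 ± 0.19 (limma adjusted p = 5.64e-05). Groups did not overlap for these genes.

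Cytokines were more mixed. Of 35 listed cytokines and chemokines 25 were tested, 12 were higher, 1 was lower and 12 were not called, with a median of 1.41, and 4 did not reach 10 normalized counts in any of the 14 libraries. Without the 3 libraries that stand apart 10 were higher and 2 lower. IL1RN, the natural antagonist of interleukin-1, had 597 to 2083 (median 716) in the knockdown and 48.0 to 406 (median 119) in the knockouts, a difference of 2.70 ± 0.41 (limma adjusted p = 0.000144). IL16, a chemoattractant, was higher by 1.74 ± 0.27 (limma adjusted p = 0.000179) and TNFSF10, a death ligand, by 1.94 ± 0.34 (limma adjusted p = 0.000508), both without overlap, although the TNFSF10 ranges nearly touched. CCL3 differed by 3.91 ± 0.66 (limma adjusted p = 0.000336) with overlap, and its reads can be shared with near-identical copies. NF-kB subunits and targets were split, with 10 of 26 higher, 4 lower and 12 not called around a median of 0.15. TRAF1, a signaling adaptor, was higher by 2.23 ± 0.42 (limma adjusted p = 0.000792), while RELB, an NF-kB subunit, was lower, at -1.45 ± 0.30 (limma adjusted p = 0.00183).

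Immediate early genes, which respond first to signals, were higher in 13 of 26 tested members, lower in 1 and not called in 12, with a median of 0.83. ZFP36L1, which speeds decay of messages rich in A and U, had 1145 to 10168 (median 2461) in the knockdown and 93.6 to 337 (median 211) in the knockouts. The controls were at 157 and 169 (shRNA control), 239 and 139 (KO control) and 209.9 (wild type), within the knockout range, and the ZFP36L1 difference was 3.67 ± 0.39 (limma adjusted p = 6.87e-06). SGK1, a kinase induced by stress and hormones, was higher by 2.86 ± 0.33 (limma adjusted p = 1.08e-05). KLF2 and KLF6, zinc finger factors of quiescent and activated myeloid cells, were higher by 2.49 ± 0.32 and 1.88 ± 0.23 (limma adjusted p = 3.89e-05 and 1.87e-05).

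Genes of monocyte and macrophage differentiation were higher in 21 of 41 tested members, lower in 0 and not called in 20, with a median of 1.04. ITGAX, the CD11c integrin chain, had 4551 to 21272 (median 5573) in the knockdown and 131 to 1460.0 (median 492) in the knockouts, a difference of 3.69 ± 0.46 (limma adjusted p = 2.35e-05). CSF1R, the receptor for macrophage colony-stimulating factor, had 520.2 to 6221 (median 784) and 28.8 to 170.3 (median 79.5), a difference of 3.94 ± 0.49 (limma adjusted p = 2.62e-05). Neither gene overlapped between groups, and the top value of both was in shRNA2 IRF2BP2 replicate 3.

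Genes of antigen presentation and lysosomes were mostly higher or not called. Of 13 listed class II genes 6 were tested, 5 were higher and 1 was not called, with a median of 2.09. CTSS, the protease that trims the invariant chain, had 1911 to 8329.5 (median 4207) in the knockdown and 693 to 1242 (median 848) in the knockouts, without overlap, a difference of 2.13 ± 0.26 (limma adjusted p = 1.86e-05). HLA-DRB1 and HLA-DRB5, which share sequence and so reads, differed by 2.42 ± 0.39 and 2.06 ± 0.35. Of 19 class I and peptide loading genes 10 were higher, 1 was lower and 8 were not called, with a median of 0.88. With the replicate number as a block 7 were higher and 0 lower, with a median of 0.66. Relative to each gene's 14-library mean, their median was -0.19 to 1.03 in the knockdown libraries. It was -0.92 to -0.40 in replicate 1 of the knockout clones and -0.03 to 0.11, inside the knockdown range, in replicate 2. B2M, the invariant light chain of class I, was higher by 1.46 ± 0.32 (limma adjusted p = 0.00234) with overlap, and ERAP1, a peptide-trimming enzyme, by 1.39 ± 0.25 (limma adjusted p = 0.000623) without. Lysosomal genes were higher in 16 of 33, lower in 1 and not called in 16, with a median of 0.63. CTSB, a cysteine protease, was higher by 1.65 ± 0.26 (limma adjusted p = 0.000204).

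**Figure D4:**
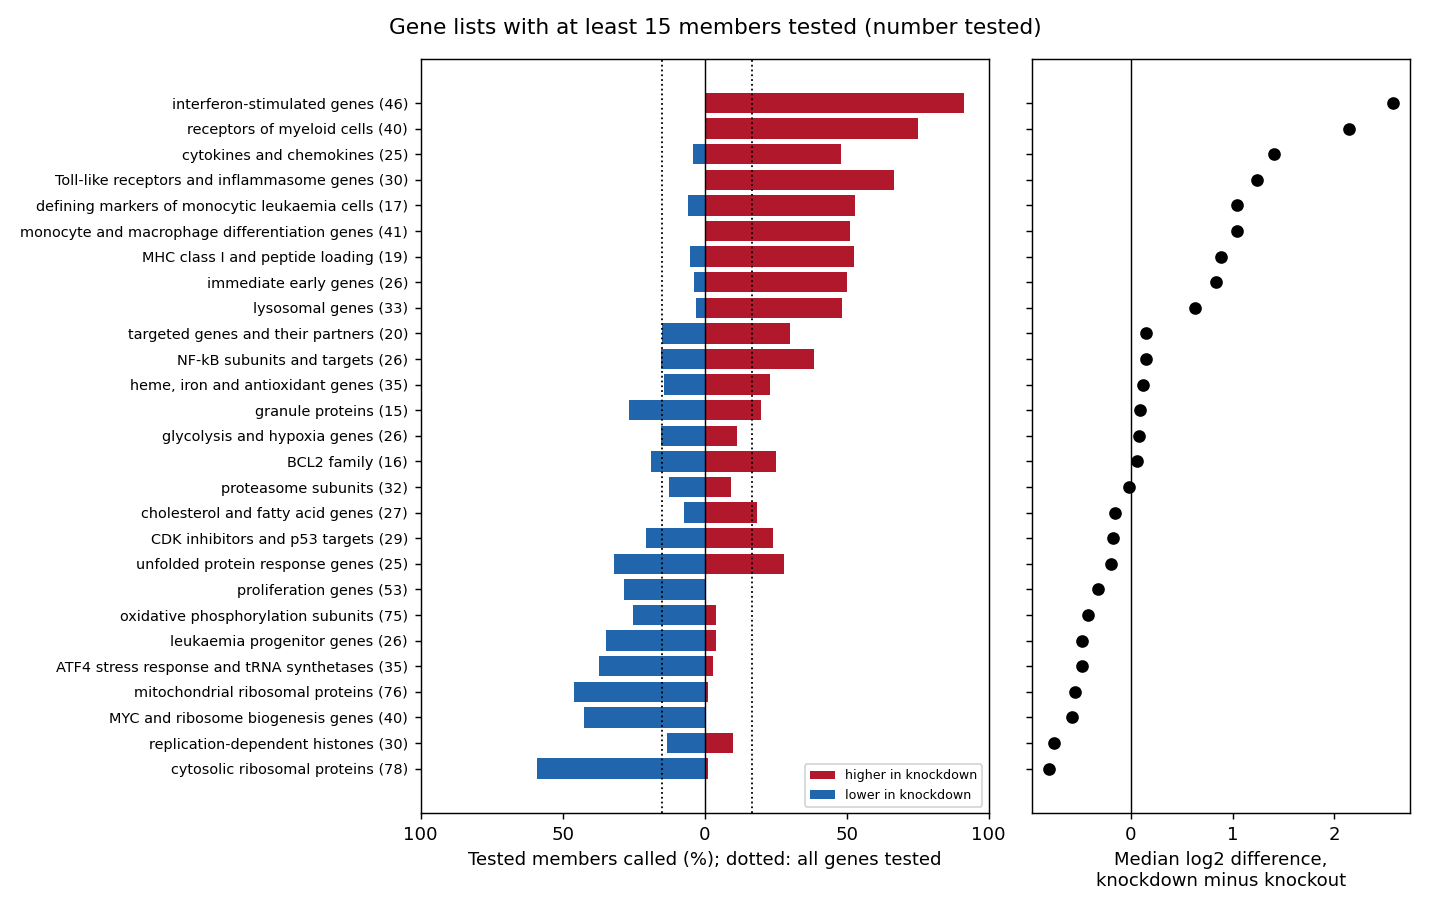
Share of tested members called higher (red, right) or lower (blue, left) in the knockdown for each gene list with at least 15 tested members, and the median log2 difference of all tested members (points). The dotted lines mark the shares over all genes, 16.5 and 15.2 percent, and interferon-stimulated genes and myeloid receptors stand at the top, cytosolic ribosomal proteins at the bottom.

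Genes of leukemic progenitors were lower in 9 of 26 tested members, higher in 1 and not called in 16, with a median of -0.48. IGLL1, a surrogate immunoglobulin light chain of precursor cells (chromosome 22, 23573125 to 23580290), had 0 to 4.82 (median 3.58) in the knockdown and 25.9 to 1029.9 (median 155) in the knockouts. Both knockout and control values were widely spread, the controls at 925 and 166 (shRNA control), 30.4 and 65.8 (KO control) and 306 (wild type), but no knockdown library reached the lowest of them. The IGLL1 difference was -5.65 ± 0.72 (limma adjusted p = 2.81e-05). TERT, the reverse transcriptase of telomerase, had 61.8 to 251 (median 164) and 576 to 1673 (median 943), a difference of -2.63 ± 0.31 (limma adjusted p = 1.38e-05). EGFL7, a secreted protein of stem and endothelial cells, was lower, at -1.79 ± 0.34 (limma adjusted p = 0.000822). PRTN3, the granule protease proteinase 3 made by immature myeloid cells, was lower, at -2.51 ± 0.50 (limma adjusted p = 0.00129), and at -1.57 without the 3 libraries that stand apart. CAMP, the granule peptide cathelicidin, went the other way by 5.20 ± 0.82 (limma adjusted p = 0.000204), with its highest knockdown value in shRNA2 IRF2BP2 replicate 3.

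Other large differences on the lower side came from genes of varied function. LIMS2, an adaptor of integrin adhesion, had 28.4 to 78.9 (median 47.6) in the knockdown and 200.2 to 1952 (median 608) in the knockouts, without overlap, a difference of -3.68 ± 0.43 (limma adjusted p = 1.44e-05). The controls lay below most knockout libraries, at 184 and 214 (shRNA control), 131 and 135 (KO control) and 139 (wild type). DAB2IP, a RAS GTPase-activating protein, had 41.0 to 93.6 (median 74.7) and 234 to 794 (median 452), a difference of -2.65 ± 0.28 (limma adjusted p = 6.87e-06), and its controls at 378 and 373 (shRNA control), 509 and 241 (KO control) and 232 (wild type) were at the knockout level. CEACAM6, an adhesion molecule of granulocytes, and MATN4, a matrix protein, were lower, at -3.47 ± 0.51 and -3.28 ± 0.44 (limma adjusted p = 0.000107 and 4.93e-05). VCX3A and VCX, near-identical genes of the testis, were lower, at -3.94 ± 0.61 and -3.25 ± 0.62, and reads could be split between them.

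Genes for making ribosomes were lower in the knockdown, by small amounts. Of 78 cytosolic ribosomal proteins 46 were lower, 1 was higher and 31 were not called, with a median of -0.80. In 12 the groups did not overlap (6.83 percent of all genes tested lay wholly below), and under quantile normalization 26 were lower and 4 higher. RPL29, a large-subunit protein, had 9701 to 40776 (median 38254) in the knockdown and 68276 to 150299 (median 99758) in the knockouts, a difference of -1.71 ± 0.32 (limma adjusted p = 0.000717). The lowest knockdown value was in shRNA1 IRF2BP2 replicate 3, which stands apart from the other libraries. Processed pseudogenes can share reads with ribosomal protein genes. Relative to each gene's 14-library mean, the median of the 78 genes was 1.23 in JDP2 KO clone 1 replicate 2 and 0.87 in ATF7 KO clone 2 replicate 2, and between -0.70 and -0.12 in the 6 knockdown libraries. In ATF7 KO clone 1 replicate 1 it was -0.21, inside the knockdown range. Without the 3 libraries that stand apart 44 were lower and 0 higher, with a median of -0.63.

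Mitochondrial ribosomal proteins separated more cleanly. Of 76 tested, 35 were lower, 1 was higher and 40 were not called, with a median of -0.55, and in 27 the groups did not overlap. MRPS30 had 784 to 1659.9 (median 1487) in the knockdown and 2981 to 4770.0 (median 3708) in the knockouts, a difference of -1.43 ± 0.19 (limma adjusted p = 5.64e-05). MRPL17 had 471 to 2012 (median 1334) and 3034 to 4508 (median 3493), a difference of -1.56 ± 0.25 (limma adjusted p = 0.000233). No knockdown library reached a knockout library in either gene. Subunits of oxidative phosphorylation were lower in 19 of 75, higher in 3 and not called in 53, with a median of -0.42. Relative to each gene's 14-library mean, their median was -0.36 to -0.13 in the knockdown libraries. It was -0.21 to -0.02 in replicate 1 of the knockout clones, partly inside that range, and 0.18 to 1.18 in replicate 2. The called share of these subunits, 29.3 percent, was below the 31.7 percent of all genes tested. With the replicate number as a block 6 were lower and 1 higher, where 957 of the 13225 genes were lower in all. Among the subunits NDUFAB1, an acyl carrier protein of complex I, was lower, at -1.53 ± 0.32 (limma adjusted p = 0.00173).

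MYC, a factor that drives growth genes, had 3862 to 20206 (median 13711) in the knockdown and 24295 to 37744 (median 32988) in the knockouts, without overlap. The MYC difference was -1.42 ± 0.30 (limma adjusted p = 0.0017). Of 40 tested MYC and ribosome biogenesis genes 17 were lower, 0 were higher and 23 were not called, with a median of -0.58 (-0.34 without the 3 libraries that stand apart, with 17 lower). ODC1, the first enzyme of polyamine synthesis, and EBNA1BP2, a nucleolar assembly factor, were lower, at -1.53 ± 0.26 and -1.37 ± 0.23 (limma adjusted p = 0.000321 and 0.000283). ATF4 targets and tRNA synthetases were lower in 13 of 35, higher in 1 and not called in 21, with a median of -0.48. ATF4 itself, the leucine zipper factor of amino acid stress, had 6754 to 13841 (median 12080.0) and 20064 to 30432 (median 22703), without overlap, a difference of -1.06 ± 0.20 (limma adjusted p = 0.000847). PSAT1, an enzyme of serine synthesis, was lower, at -1.42 ± 0.23 (limma adjusted p = 0.000229).

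Proliferation genes were lower in 15 of 53, higher in 0 and not called in 38, with a median of -0.32 (-0.15 without the 3 libraries that stand apart, with 16 lower). With the replicate number as a block 4 of the 53 were lower, a share near that of all genes in that fit. A brake of the cell cycle differed by more. CDKN1A, the inhibitor p21 (chromosome 6, 36676463 to 36687332), had 1948 to 9778 (median 2501) in the knockdown and 185 to 380.4 (median 283) in the knockouts. The controls were at 294 and 370.1 (shRNA control), 237 and 149 (KO control) and 435 (wild type), near the knockout level, and the CDKN1A difference was 3.43 ± 0.30 (limma adjusted p = 9.61e-07). The list of CDK inhibitors and p53 targets as a whole was split, with 7 of 29 higher, 6 lower and 16 not called. CDT1, which licenses replication origins, was lower, at -1.64 ± 0.38 (limma adjusted p = 0.00355), and at -0.98 without the 3 libraries that stand apart. PLK1, a mitotic kinase, was lower, at -1.09 ± 0.25 (limma adjusted p = 0.00358) with overlap. In the BCL2 family 4 of 16 were higher, 3 lower and 9 not called. BMF, a pro-death member, had 802 to 5332 (median 1406) and 172 to 476 (median 260.4), a difference of 2.53 ± 0.34 (limma adjusted p = 5.64e-05).

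Other lists were split in direction. Cholesterol and fatty acid genes had 5 higher and 2 lower of 27 (4 and 1 without the 3 libraries that stand apart), glycolysis and hypoxia genes 3 and 4 of 26, replication-dependent histones 3 and 4 of 30 (3 and 1 of 29 without them), granule proteins 3 and 4 of 15, and unfolded protein response genes 7 and 8 of 25. Their called shares were 25.9, 26.9, 23.3, 46.7 and 60 percent in that order, against 31.7 percent of all genes tested. The histone median was -0.76, and -0.25 without the 3 libraries that stand apart. Heme, iron and antioxidant genes had 8 higher and 5 lower of 35 (37.1 percent called). HMOX1, the enzyme that breaks heme, had 984 to 4537 (median 2062) in the knockdown and 289 to 774 (median 467) in the knockouts, without overlap, a difference of 2.18 ± 0.32 (limma adjusted p = 0.000116). Its KO control values of 685 and 330.5 lay within the knockout range and its shRNA control values of 318 and 153 reached below it.

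The controls were placed beside each difference without entering its test. Of the 1148 genes called higher in the knockdown by more than 1 on the log2 scale, the mean of the 4 control libraries lay at or beyond the knockout mean in 259 and within 0.25 of the gap from it in 333. It lay in the middle of the gap in 432, within 0.25 of the gap from the knockdown mean in 69, and beyond the knockdown mean in 55. Of 1035 genes called lower by more than 1, the middle held 670 and the knockout side 84 and 194. The knockdown side held 78 and 9. Among the 42 called interferon-stimulated genes 32 had their controls on the knockout side, and among 30 called myeloid receptors 24 did. Of all 2181 genes called higher, 393 had a control mean beyond the knockout mean (18 percent) and 535 in the knockout end of the gap (24.5 percent). Of the 47 called cytosolic ribosomal protein genes 33 had controls in the middle of the gap, and of 36 called mitochondrial ones 27 did. Of all 2016 genes called lower 1187 did (58.9 percent).

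A smaller set had controls at the knockdown level. NDUFB4, a complex I subunit, had 1727 to 13924 (median 6206) in the knockdown and 716 to 2097 (median 957) in the knockouts, and its controls were at 8353 and 6811 (shRNA control), 10756 and 12281 (KO control) and 3417 (wild type). The controls were above every knockout library, the knockdown values were widely spread and overlapped the knockouts, and the difference between the groups was 2.20 ± 0.44 (limma adjusted p = 0.00116). Of 32 proteasome subunits 3 were higher, 4 were lower and 25 were not called, a called share of 21.9 percent below the 31.7 percent of all genes. In 5 of these 7 called members the control mean lay beyond the knockdown mean, against 6.74 percent of all genes called higher and 1.93 percent of those called lower. PSMB5, a catalytic subunit, had 809 to 1957 (median 1065) and 384 to 992 (median 622) with controls at 1387 and 1143 (shRNA control), 2496 and 2042 (KO control) and 939 (wild type), a difference of 0.86 ± 0.24 (limma adjusted p = 0.0117), a call lost with the replicate number as a block (0.77, limma adjusted p = 0.0683). ALDOC, a glycolytic aldolase, had 259 to 888 (median 418) and 25.9 to 332 (median 90.3) with controls at 456 and 1617 (shRNA control), 652 and 691 (KO control) and 765 (wild type). These controls exceeded most knockdown values too.

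In 21 genes all 4 control libraries lay strictly between the groups, with the knockdown above in 11 (0.0832 percent of genes tested) and below in 10 (0.0756 percent). The wild type library also lay between in 19 of them. PARP14 had 1089 to 5524 (median 2329) in the knockdown, 398 and 714 (shRNA control), 451 and 611 (KO control) and 532 (wild type) in the controls and 157 to 395 (median 311) in the knockouts. The 3 ranges were stacked without overlap, and the PARP14 difference was 2.92 ± 0.30 (limma adjusted p = 6.53e-06). NLRP3, the sensor of the best-known inflammasome, had 971 to 1231 (median 1085), with 802 and 826 (shRNA control), 726 and 760.3 (KO control) and 694 (wild type) in the controls and 330.1 to 462 (median 401) in the knockouts. Its values were tight in every group, with a difference of 1.44 ± 0.15 (limma adjusted p = 6.47e-06). The other genes with the knockdown on top were CCRL2, ABAT, ARG2, BCL6, MITF, ZNF641, DCTN5, NIPAL3 and ETV6. ABAT, which breaks down the transmitter GABA, differed by 2.41 ± 0.27, and MITF, a leucine zipper factor of lysosomal and pigment genes, by 1.67 ± 0.27 (limma adjusted p = 9.81e-06 and 0.000275). ARG2, mitochondrial arginase, had 41.7 to 95.6 (median 54.7) in the knockdown and 2.40 to 26.4 (median 19.7) in the knockouts. MITF and ARG2 are shown because their windows hold the cyclic AMP response element, in capitals, with 2 copies in ARG2. The MITF window is 1 of 3 for that gene and lies inside the gene span (chromosome 3, 69739464 to 69968332). Which of the 3 starts these cells use was not tested.
MITF promoter, chr3:69936342-69936591, plus strand: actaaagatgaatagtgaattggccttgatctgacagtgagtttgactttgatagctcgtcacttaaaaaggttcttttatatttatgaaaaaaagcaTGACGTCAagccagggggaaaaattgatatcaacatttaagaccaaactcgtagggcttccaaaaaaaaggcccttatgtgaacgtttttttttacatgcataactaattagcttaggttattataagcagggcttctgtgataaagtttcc
ARG2 promoter, chr14:67619670-67619919, plus strand: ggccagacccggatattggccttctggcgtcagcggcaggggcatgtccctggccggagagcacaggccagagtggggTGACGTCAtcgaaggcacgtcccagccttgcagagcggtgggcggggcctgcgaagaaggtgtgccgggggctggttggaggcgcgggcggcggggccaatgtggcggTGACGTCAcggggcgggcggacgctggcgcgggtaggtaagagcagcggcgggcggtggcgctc

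The mirror set, with the knockouts on top, was led by ACTL8, an actin-like gene normally active in testis (chromosome 1, 17755333 to 17827063). ACTL8 had 99.2 to 904 (median 587) in the knockdown, 3127 and 1323 (shRNA control), 1716 and 2199.9 (KO control) and 1897 (wild type) in the controls and 3331 to 8787 (median 4825) in the knockouts. The difference was -3.41 ± 0.38 (limma adjusted p = 9.81e-06), the control values falling in the gap. FGFBP3, a carrier of fibroblast growth factors, had 47.4 to 226 (median 182), 434 and 309 (shRNA control), 574 and 403 (KO control) and 426 (wild type) and 627 to 1365 (median 765) in the same order, a difference of -2.46 ± 0.31 (limma adjusted p = 2.38e-05). The others were DMAC1, DACT3, RPL27A, HMGN1, RPIA, CFAP20, POLR1D and EIF2S2. HMGN1, a nucleosome-binding protein, and RPL27A, a ribosomal protein, differed by -1.44 ± 0.23 and -1.57 ± 0.29 (limma adjusted p = 0.0002 and 0.000778).

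**Figure D5:**
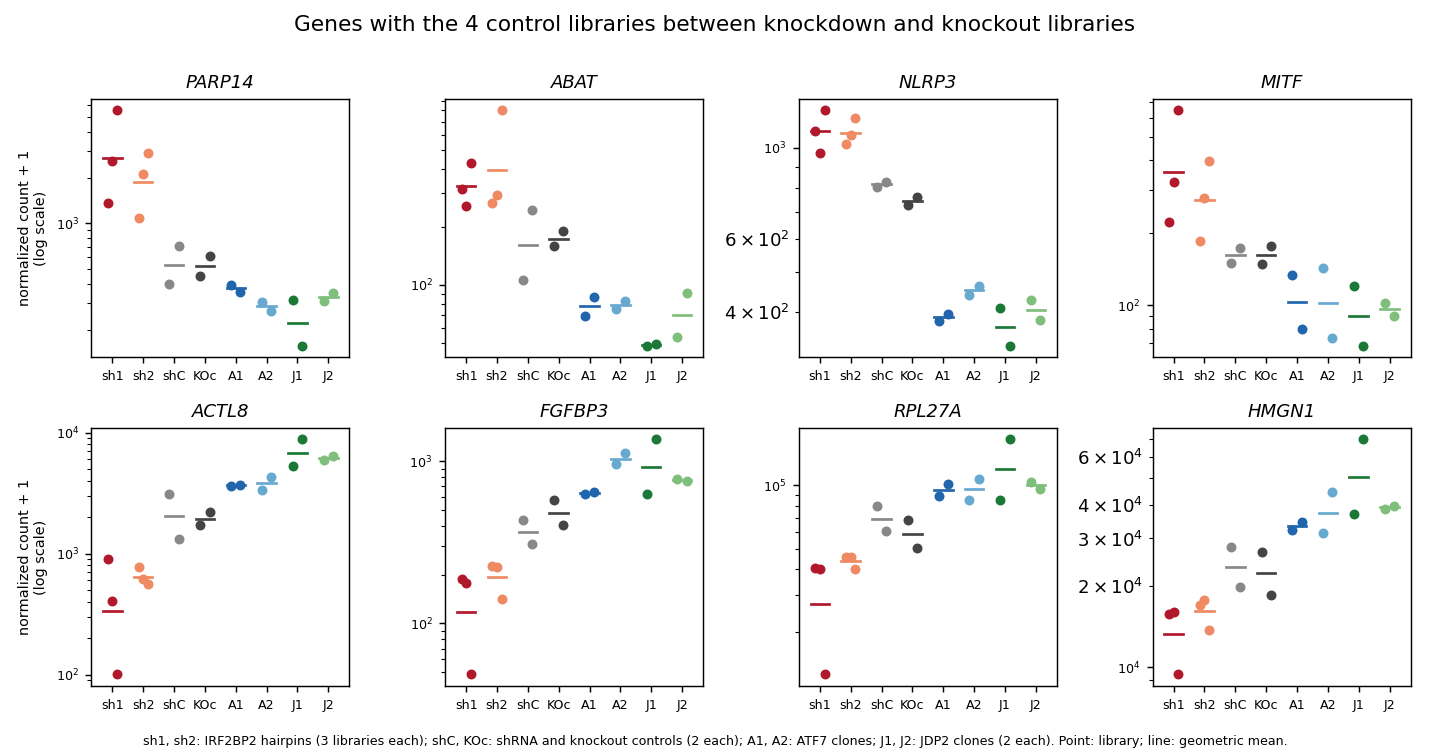
Normalized count + 1 on a log axis for 8 genes in which the 4 control libraries (gray) lie between the 6 hairpin libraries and the 8 clone libraries, by hairpin, control and clone, with a line at each geometric mean. PARP14, ABAT, NLRP3 and MITF step down from hairpins to controls to clones, and ACTL8, FGFBP3, RPL27A and HMGN1 step up.

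Taking each arm relative to its own control left few genes past the test. The knockdown effect minus the knockout effect was called in 210 of 13057 genes (1.61 percent; 173 higher, 1.32 percent, and 37 lower, 0.283 percent). The count rests on the 2 libraries of each control, being 0 without shRNA control replicate 1, KO control replicate 1 or KO control replicate 2, and 19 without shRNA control replicate 3. It was also 135 without ATF7 KO clone 2 replicate 2 and 115 without JDP2 KO clone 2 replicate 2. Members called in it included 12 of the interferon-stimulated genes, 9 of the receptors and 8 of the monocyte and macrophage genes, all higher. OAS1 differed by 5.75 on this scale (limma adjusted p = 0.00839), GPR34 by 6.28 (0.00733) and IRF2 by 2.34 (0.00979), each with its limma adjusted p in parentheses. Of the genes with controls between, PARP14, ABAT, NLRP3 and ACTL8 were called, at 2.89, 2.52, 1.31 and -3.48, and the others were not. The choice of that set by the same control libraries fixed these signs in advance, so the calls are no separate support. No cytosolic or mitochondrial ribosomal protein gene was called, in a fit that called 0.283 percent of all genes lower. Their median differences of effects were still -0.98 and -0.54, against -0.80 and -0.55 in the direct comparison.

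Between the controls themselves limma called 0 of 13057 genes, with 276 at an unadjusted p under 0.05, and edgeR and DESeq2 called 0. With 2 libraries a side this does not show that the controls are alike. In 27 of the 4195 called genes with a value in both fits (0.644 percent) the direct difference and the difference of effects had opposite signs. MMP1, a collagenase, had 11.4 to 162 (median 60.2) in the knockdown and 74.4 to 227 (median 135) in the knockouts, a difference of -1.61 ± 0.48 (limma adjusted p = 0.0159). The MMP1 call was lost with edgeR (-1.13, adjusted p = 0.0753) and without the shRNA2 libraries (-1.33, limma adjusted p = 0.0855). Its shRNA control libraries were at 2.99 and 18.7 and its KO control libraries at 100.0 and 148. Relative to the controls the MMP1 difference was 2.18, which did not pass (limma adjusted p = 0.289). SCARF1, a scavenger receptor, differed by 1.5 ± 0.45 directly (limma adjusted p = 0.0167) and by -0.17 relative to controls. Its shRNA control values of 40.8 and 56.2 exceeded its KO control values of 13 and 15.8. The SCARF1 call was lost with quantile normalization, with the replicate number as a block, without the shRNA2 libraries and without ATF7 KO clone 2 (limma adjusted p = 0.122, 0.0652, 0.22 and 0.0511).

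Markers of cell types other than monocytes did not move together. Of 9 tested markers of T and NK cells 1 was higher and 0 were lower, of 6 B cell markers 2 were higher and 1 lower, of 6 erythroid and megakaryocytic markers 0 were higher and 1 lower, and of 4 epithelial markers 0 were called. Among 11 tested fibroblast and endothelial markers 3 were higher, namely PECAM1, VIM and FN1, which myeloid cells also express. PECAM1, an adhesion molecule, had 2443 to 9227 (median 5044) in the knockdown and 763 to 1204 (median 1064) in the knockouts, without overlap, a difference of 2.21 ± 0.23 (limma adjusted p = 6.87e-06). Summed levels of the fibroblast and endothelial list were 25676 to 44278 in the knockdown and 10861 to 17156 in the knockouts, and those of the epithelial list 56.8 to 199 and 52.8 to 348. Sums of the T and NK cell list (5544 to 29464 and 6915 to 15725), the B cell list (964 to 2485 and 1498 to 2460) and the erythroid list (494 to 942 and 378 to 1426) overlapped between the groups, as did those of the epithelial list, and HBG1 of the erythroid list was at 0 in all 14 libraries. The median of the fibroblast and endothelial list was 2.23 above the 14-library mean in ATF7 KO clone 2 replicate 1, 1.98 in shRNA1 IRF2BP2 replicate 3 and 1.02 in JDP2 KO clone 1 replicate 2, libraries of both groups. Their part in the results was not tested.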

How the data were processed

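The authors deposited 1 table of normalized counts for 20423 genes, a depth-scaled signal per library. Per the submitters' processing notes it involved hg38, featureCounts and DESeq2, and the aligner, gene annotation and strand setting were not given in the sources used here. Dividing each library by its own step made 100 percent of its values whole within 0.01, so reads per gene were recovered. RNA was purified on RNeasy columns with DNase treatment and sequenced with a Hieff NGS Ultima mRNA kit, per the labels' protocols. Of the 21 labelled libraries, 2 marked as of low quality are not analysed here.

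Values were tested as log2(value + 1) with limma 3.58.1 (trended variance, R 4.3.3) in genes with a mean of at least 10 over the libraries of the fit, with Benjamini-Hochberg adjustment over all of them and a threshold of 0.05. The main fit held the knockdown and knockout groups, a second one split the knockouts by gene, and a further one added both controls for the difference of effects. The fits were tested on simulated data. Pseudocounts, filters, scalings, replicate and construct blocks, library weights, edgeR 4.0.16, DESeq2 1.42.0 on the recovered reads and left-out libraries or constructs were tried as alternatives. A control mean is placed on the line from the knockout mean to the knockdown mean, near either end where it lies within 0.25 of the gap.

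Named genes were the targets, their called partners, the 12 largest called differences each way with a mean of at least 50 in 1 group and both hairpins beyond all clones, the 4 members with the lowest p among those called in each list (the 2 with the highest mean where none was called), and the 5 largest differences of opposite sign relative to controls. Genes with controls between the groups, the promoters shown and the AP-1 subunits without a call were chosen after their values were seen. The members and lists were chosen with earlier results of these data known. Gene positions and promoters are from RefSeq on GRCh38.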

Additional observations from a re-analysis of the deposited data

Results flagged for a closer look

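For 52 values of the named genes, 1 library lay far from the others of its group, by a gap test that flags about 1 in 20 groups by chance. Most of these values came from 3 libraries, and each is given as a normalized count against the next value of its group. In shRNA1 IRF2BP2 replicate 3, genes of ribosomes, mitochondria, the proteasome, secretion and amino acid use were lowest of the knockdown group, namely RPL17 (353 against 648), RPL29 (9701 against 32319.6), RPL27A (12549 against 39786), RPS2 (39787 against 119993), MRPL17 (471 against 1268), MRPS15 (1019 against 1698), NDUFAB1 (1850.3 against 6392), NDUFV2 (1615 against 2568), PSMD6 (3907 against 5566), PHGDH (1690.1 against 6325), VARS1 (3013 against 10686) and SEC61B (1518 against 4125). In the same library IRF2BP1 (841 against 2535), BATF3 (466 against 1458), ACTL8 (99.2 against 408), CDT1 (1431 against 4709.9), PLK1 (3309 against 8058), FGFBP3 (47.4 against 139.9) and DMAC1 (314 against 905) were lowest, and only ATF7 among the named genes stood out on the high side (1337 against 608).

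In shRNA2 IRF2BP2 replicate 3, the library whose IRF2BP2 level contradicts its label, receptors and adhesion molecules of mature myeloid cells were highest of the knockdown group, namely LILRA5 (4459 against 656), LILRB3 (4437 against 629.9), LILRA6 (3582 against 668), C5AR1 (26187 against 5163), ITGAX (21272 against 6207), CSF1R (6221 against 1314) and ITGAM (13513 against 4493). The genes IL16 (7495 against 3265), TRAF1 (757 against 323), CDKN1A (9778 against 2579.7) and CAMP (12191 against 1146) were also highest there, and FADS1 (3538 against 5143) was lowest.

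In JDP2 KO clone 1 replicate 2, values were highest of the knockout group for BATF3 (6625 against 3722), MATN4 (2527 against 738), RPL27A (165946 against 107896), NDUFAB1 (38958 against 16203), NDUFV2 (7563 against 4867), VARS1 (41367 against 26432), SEC61B (16333 against 10216), H2AC12 (145 against 37), DMAC1 (5829 against 3114), DACT3 (469.9 against 197) and HMGN1 (69765 against 44544). They were lowest for LILRA6 (0 against 9.6), ERAP1 (198 against 426), LIPA (749.6 against 1124), SEC24D (1037 against 1895), PTPRC (969.7 against 1945) and PARP14 (157 against 265). The remaining values were GLA (388 against 532), lowest in JDP2 KO clone 1 replicate 1, PGD (3006 against 4257), lowest in ATF7 KO clone 2 replicate 1, and ARG2 (2.4 against 9.32), lowest in ATF7 KO clone 2 replicate 2.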

How the results depend on the processing

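The direct comparison gave between 3527 and 4399 called genes when 1 library was left out. It gave 2146 with the replicate number as a replicate block, which kept 2127 of the 4197 calls, and 2658 without the shRNA1 libraries. Among the knockdown and knockout libraries only the hairpins have a replicate 3, so the difference in the block fit rests on replicates 1 and 2. Replicate numbers were not treated as a pairing. The 31 pairs with the same number had a median correlation of deviations of 0.02, and 12 exceeded 0.1. For 50 pairs with different numbers the median was -0.02, and 18 exceeded 0.1. Deviations of the 2 libraries of 1 clone mirror each other, so these correlations do not settle whether the numbers pair. IRF2BP2 was nevertheless higher in replicate 2 than in replicate 1 of all 6 hairpins and clones. The list median of MHC class I genes was also higher in replicate 2 of all 6, and that of MYC and ribosome biogenesis genes was lower in all 6. Other lists, such as the proliferation genes, kept no such order. A shared effect of the replicate number on genes or lists was not tested. Among the called genes named above, the block ended the calls of BATF3, H2AC12, JUN, PSMB5, SCARF1 and SEC24D. The knockdown against the ATF7 knockout gave 560 calls with the replicate block, 3791 with library weights, 2379 with DESeq2 and 2546 without the 3 libraries that stand apart. It gave 806 without the shRNA2 libraries, 495 without ATF7 KO clone 1, 391 without ATF7 KO clone 2, and 723 to 2112 without 1 library. Quantile normalization split its calls into 930 higher and 899 lower, against 952 and 575. The knockdown against the JDP2 knockout gave 2035 with the replicate block, 6880 with library weights, 1312 without JDP2 KO clone 1, 2047 without JDP2 KO clone 2, and 2397 to 3913 without 1 library.

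The difference of effects gave 138 calls from means per construct, 679 with the replicate block, 581 with library weights, 722 with DESeq2 and 693 without the 3 libraries. It gave 138 without ATF7 KO clone 2, 80 without JDP2 KO clone 2, and 0 to 306 without 1 library. DESeq2 split its calls into 516 higher and 206 lower, against 173 and 37. The cause of these changes was not tested beyond the fewer libraries that a left-out construct or library leaves.

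Of 160 named genes 156 were called, and 123 of these passed under every setting tried. The uncalled CLDN4 changed sign to -0.011 with a pseudocount of 5, -0.20 with quantile normalization, -0.10 with edgeR, -0.14 with DESeq2, -0.20 without shRNA2, -0.13 without JDP2 KO clone 1, and ranged from -0.25 to 0.16 without 1 library. The uncalled JDP2 was at 0.00089 without shRNA1. With the replicate block 37 of the interferon-stimulated genes were higher, 23 of the cytosolic and 23 of the mitochondrial ribosomal protein genes were lower, and 4 of the proliferation genes and 6 of the oxidative phosphorylation genes were lower, against 957 of all 13225 genes. Depth limits the low end, where knockout values of a few reads make a large log2 difference depend on the pseudocount.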
